A study of Mus musculus with 20 samples.

Results

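A set of 10 heat shock protein and chaperone genes were described in the adult mouse hippocampus, namely Hspa1a, Hspa1b, Hspa5, Hspa8, Hsp90aa1, Hsp90ab1, Hspb1, Dnajb1, Hsph1 and Hspd1. They were found by an exact match of gene symbol among the 48709 genes of the deposited gene map, and all 10 were among the 19797 genes that passed the filter on low counts. RNA-seq of ribosome-depleted RNA was available for 20 C57BL/6 mice, 5 in each of 4 groups. The control females and control males came from dams that breathed filtered air during pregnancy, and the nPM females and nPM males from dams that breathed nPM, which is nano-sized particulate matter collected from urban air. The labels give the exposure as 5 h per day on 3 days per week, starting at gestational day 2, and as 300 mg/m3, while the methods of the study give the same number in micrograms per cubic meter. Females were aged 17.71 to 18.29 weeks and males 18.57 to 19.14 weeks at tissue collection. Sex and age cannot be told apart. The methods describe injections of EdU, a label of dividing cells, for males and then state that every animal received it, so that it is unclear whether the females did. The study drew its adult offspring from 5 litters per exposure group, and the labels do not tie a mouse to its litter. The 10 mice per exposure used here therefore include littermates, and the p-values treat them as independent mice. Whether mice of the same sex and exposure were littermates is not known.

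Molecular chaperones bind unfolded or partly folded proteins and keep them from aggregating. The HSP70 proteins bind short stretches of a client in cycles of ATP hydrolysis, the J-domain proteins such as DNAJB1 start that cycle, and HSP110 proteins such as HSPH1 end it by exchanging the nucleotide. HSP90 proteins finish the folding of kinases and steroid receptors, small heat shock proteins such as HSPB1 hold unfolded clients without ATP, HSPD1 folds proteins inside mitochondria, and HSPA5, also called BiP, does so in the endoplasmic reticulum (ER). Cells under heat or oxidative stress raise the cytosolic genes through the transcription factor HSF1, and cells with unfolded protein in the ER raise Hspa5 through the unfolded protein response. Neurons hold large amounts of the constitutive forms, Hspa8 and the HSP90 pair, and little of the inducible forms at rest.

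Total counts were between 19092067 and 38663408 per mouse, with a median of 29468930, and the sex labels fitted the counts of Xist and the Y-linked Ddx3y in every mouse. Levels are given as CPM, counts relative to the library size with TMM scaling, or as RPKM, which also divides by exon length, where genes are compared with each other. Markers of the hippocampal fields were present in all 20 libraries, for example Prox1, a marker of the dentate gyrus, at 63.5 to 150 CPM. All 12 markers of the choroid plexus, the tissue that secretes cerebrospinal fluid, passed the filter, and their sum set 7 libraries apart. It was 3477 to 13897 CPM in control males 2, 4 and 5, nPM females 1 and 5 and nPM males 2 and 3, and 264 to 1582 CPM in the other 13. By group, this sum was 283 to 993 CPM in control females, 281 to 13897 CPM in nPM females, 264 to 12300 CPM in control males and 375 to 9192 CPM in nPM males. Results that moved with it are given within the 13 libraries as well. In bulk RNA, fewer cells of a type and less RNA per cell cannot be told apart.

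The inducible pair Hspa1a and Hspa1b are 2 intronless copies, at mm10 chr17:34969190-34972156 and chr17:34956436-34959238, both on the minus strand. Their longest open reading frames differed at 10 of 1929 aligned bases, an identity of 99.5%. The 250 bases before the start of each gene are given here, since they hold the same HSF1 motif in both copies and differ at 3 positions, 207, 204 and 2 bases before the start. These and the other promoter windows are from RefSeq on build GRCm38.p6, 5′ to 3′ on the strand of the gene, and 7 of the 10 genes had one. The capitals mark GAANNTTC, a pair of inverted units bound by HSF1, which read the same on both strands.
Hspa1a, chr17:34972157-34972406, minus strand: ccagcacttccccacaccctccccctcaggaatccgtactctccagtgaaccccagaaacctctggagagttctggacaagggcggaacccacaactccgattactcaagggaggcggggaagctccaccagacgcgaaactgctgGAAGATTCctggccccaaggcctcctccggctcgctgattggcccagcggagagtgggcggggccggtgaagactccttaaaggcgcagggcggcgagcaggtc
Hspa1b, chr17:34959239-34959488, minus strand: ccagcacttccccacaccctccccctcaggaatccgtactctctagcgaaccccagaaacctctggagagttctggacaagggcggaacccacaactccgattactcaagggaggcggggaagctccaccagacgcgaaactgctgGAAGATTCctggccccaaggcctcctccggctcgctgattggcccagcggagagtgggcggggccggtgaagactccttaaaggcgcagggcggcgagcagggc
In both copies the match began 104 bases before the start. Of 32851 mouse promoter windows of 300 bases, 7.86% held GAANNTTC and 8.52% the reverse arrangement, TTCNNGAA, so that 1 such match is common. A run of 3 such units in alternating direction was in 0.603% of the windows. The longer runs contain the shorter ones.

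Matches near the other genes are shown as short stretches, since these genes differed in how they varied between mice. The window of Hspb1, on the plus strand, held 2 separate matches, the one of Hsph1, on the minus strand, held 1 before and a run of 3 units after the start, and the second annotated start of Hspd1, also on the minus strand, had a longer run.
Hspb1, chr5:135887799-135887812: agaGAAGTTTCcag
Hspb1, chr5:135887819-135887832: gcaGAACCTTCctg
Hsph1, chr5:149636359-149636372: tctTTCTCGAAggc
Hsph1, chr5:149636287-149636303: agaTTCTGGAAAGTTCt
Hspd1, chr1:55088056-55088079: gccTTCCGGAAGGTTCTAGAAcgg
Neither window of Dnajb1 held these letters. The window of Hspa5 held a different element, the ER stress response element, through which the unfolded protein response acts, and this was in 0.119% of all windows on either strand. It is marked in the 250 bases before the start, where it began 65 bases upstream.
Hspa5, chr2:34771840-34772089, plus strand: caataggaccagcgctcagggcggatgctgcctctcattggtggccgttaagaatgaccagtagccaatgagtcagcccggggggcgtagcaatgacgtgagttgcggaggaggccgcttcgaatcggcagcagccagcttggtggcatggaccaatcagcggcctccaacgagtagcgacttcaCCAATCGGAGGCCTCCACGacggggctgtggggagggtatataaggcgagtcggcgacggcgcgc
A match of letters describes the window and does not show that a factor was bound there.

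The constitutive cytosolic chaperones were among the most abundant mRNAs of the hippocampus, and the inducible ones were the lowest of the 10, above 29.31% to 38.46% of the tested genes. Per kilobase, Hsp90ab1, the constitutive HSP90, had the highest level with 367 ± 22.2 RPKM (SD, n = 20), followed by Hspa8, the constitutive HSP70, with 335 ± 44.0 RPKM and Hsp90aa1, the stress-responsive HSP90, with 272 ± 45.6 RPKM. These 3 stood above 99.64% of the tested genes or more. Hsp90ab1 exceeded Hspa8 in 15 of 20 mice and Hspa8 exceeded Hsp90aa1 in 19, so that the first step in this order lay within the spread between mice. The organelle chaperones came next, with 68.4 ± 6.64 RPKM for Hspd1 and 52.6 ± 12.3 RPKM for Hspa5, and then the HSP110 gene Hsph1 with 35.2 ± 5.56 RPKM. Dnajb1 was at 9.68 ± 1.11 RPKM.

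The inducible Hspa1b, Hspb1 and Hspa1a were at 1.88 ± 0.531, 1.32 ± 0.541 and 1.10 ± 0.189 RPKM. Neighbors in this lowest part of the order were not separated, since Hspa1b was above Hspb1 in 13 of 20 mice and Hspb1 above Hspa1a in 13. The level of Hspa8 was 71.1 to 160 times that of Hspa1a and Hspa1b together, with a median of 117. These low levels rest on 57 to 145 counts per library for Hspa1a, 79 to 282 for Hspa1b and 11 to 76 for Hspb1, so that counting error alone is sizable for Hspb1. Between the copies, Hspa1b had more counts than Hspa1a in 19 of 20 mice, with a ratio of 0.908 to 2.53 and a median of 1.64.

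Close copies limit how exactly some of these levels can be assigned. Of the 100-base windows along the longest coding transcript, 56.5% in Hspa1a and 49.9% in Hspa1b were also found in another gene, the other copy among them. For Hspa8 the share was 63.4%, for Hsp90aa1 47.5%, for Hspb1 42.7% and for Hspd1 26.9%, with Gm15459, Gm12346, Hsp25-ps1 and Hspd1-ps3 among the genes that shared them. No window of Hspa5, Hsp90ab1, Dnajb1 or Hsph1 was shared. How reads with several alignments were counted is not given in the sources used here. Hspa1a also overlaps Gm20481 on the opposite strand, Hspa8 overlaps small nucleolar RNA genes, and Hspd1 overlaps its partner Hspe1 on the opposite strand.

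**Figure D1:**
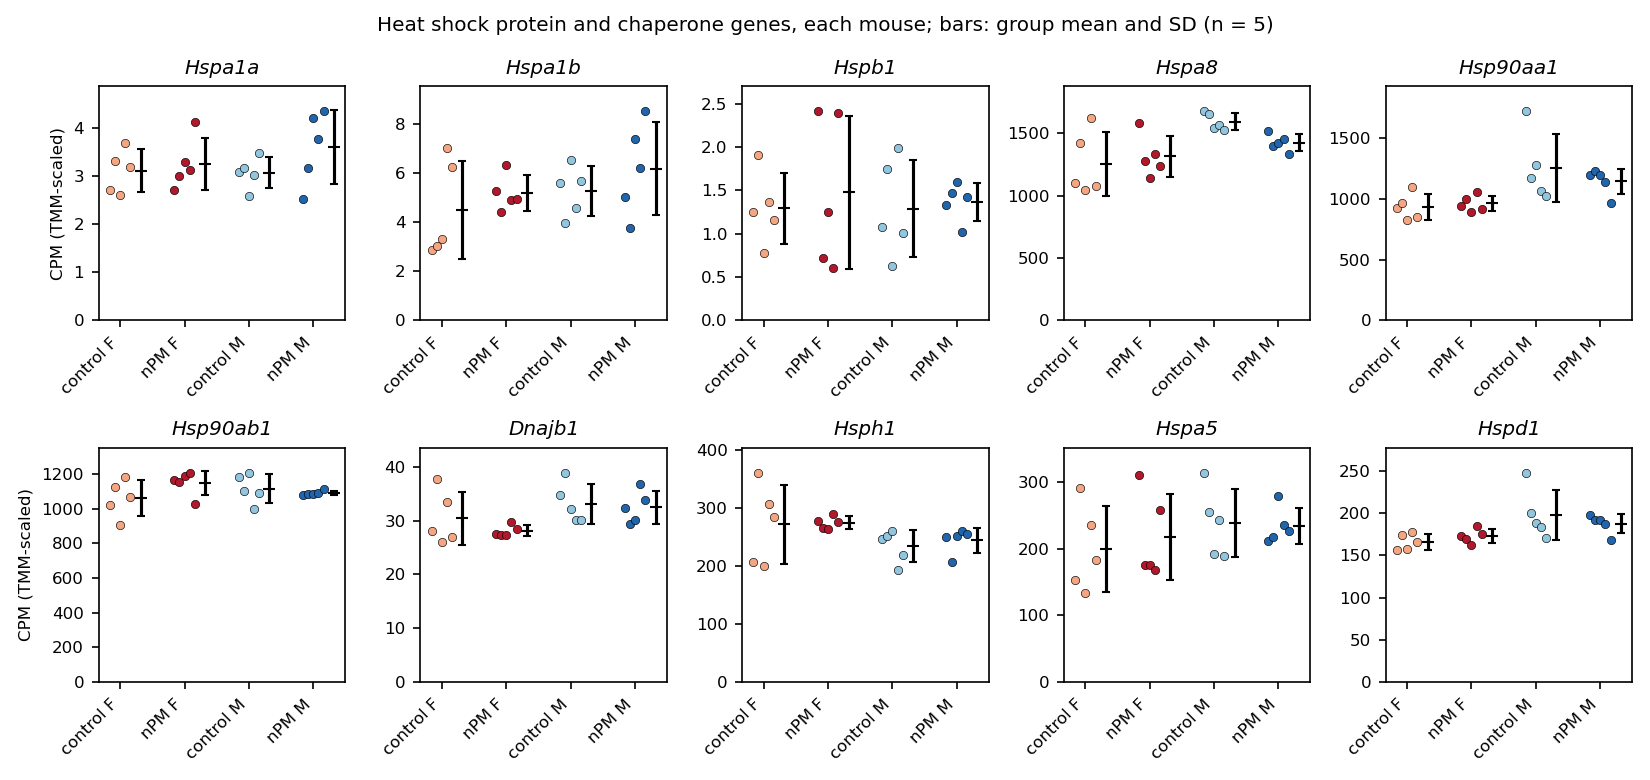
TMM-scaled CPM of the 10 genes in each of the 20 mice, on linear axes from 0, by group. Points are single mice and the bars give the group mean and SD (n = 5). The levels of Hspa8 in nPM males (1333 to 1522 CPM) lie just below those in control males (1526 to 1678 CPM), while the groups overlap for every other gene within a sex.

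The extent to which mice of the same group differed was not alike for these genes. The within-group SD of log2 CPM was 0.63 for Hspb1, 0.42 for Hspa1b and 0.35 for Hspa5, and 0.10 for Hsp90ab1, where the median of all tested genes was 0.26. Set against the 500 genes nearest to it in level, Hspa5 varied more than 96.6% of them, Hsph1 (SD 0.22) more than 84.2% and Hsp90ab1 more than 13.2%. The spread of Hspb1 and Hspa1b, at the 81.6th and 80.6th percentile of genes of like level, stood out less. Hsp90ab1 in nPM males had 1081, 1084, 1087, 1092 and 1111 CPM, so that these mice hardly differed.

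The first comparison asked whether gestational nPM left a mark on these genes in the adult offspring. With both sexes together and sex as a covariate, no chaperone gene passed between nPM and control mice in limma-voom, the test of the study. None of the 10 had a p under 0.005, the threshold the study used, where 0.141% of all genes did, and none had a p under 0.05, where 2.1% of all genes did. The counts were also 0 and 0 in edgeR and in DESeq2. The fold changes were between -0.06 and 0.25 on the log2 scale, 6 higher and 4 lower in nPM mice, with a median of 0.05 beside -0.01 over all genes. The inducible Hspa1b had the smallest p (log2 fold change 0.25, SE 0.17, 95% CI -0.10 to 0.61, p = 0.156, adjusted p = 0.9998 in limma, n = 10 per exposure).

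Hspa1b was at 2.88, 3.02, 3.31, 6.27 and 7.04 CPM in control females and at 4.44, 4.93, 4.96, 5.29 and 6.35 CPM in nPM females. In control males it was at 3.96, 4.57, 5.59, 5.70 and 6.54 CPM and in nPM males at 3.78, 5.01, 6.22, 7.41 and 8.53 CPM. The control females split into 3 low and 2 high mice, and the groups overlapped in both sexes. For Hspa1a the groups spanned 2.62 to 3.70, 2.71 to 4.14, 2.58 to 3.49 and 2.52 to 4.36 CPM in the same order. The intervals show the resolution of the design. For the abundant Hsp90ab1 the 95% CI ran from -0.06 to 0.15, and for Hspb1 from -0.37 to 0.66.

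In males, the constitutive HSP70 gene Hspa8 had the smallest p and was lower in nPM mice, without passing the correction over all genes. It was at 1526, 1539, 1568, 1654 and 1678 CPM in control males and at 1333, 1400.0, 1423, 1451 and 1522 CPM in nPM males. Every nPM male was below every control male, which by itself fixes the exact permutation p given below. That p therefore adds no support beyond this separation. Groups did not overlap in 0.667% of all genes. The log2 fold change of Hspa8 was -0.16 (SE 0.055, 95% CI -0.28 to -0.04), with p = 0.0130 and an adjusted p of 0.963 in limma, and with p = 0.00794 in a two-sided exact permutation test, the smallest that 5 against 5 mice allow. It was thus 1 of 10 chaperone genes with a p under 0.05, where 4.28% of all genes had one and 1.84% had one as lower, and none was under 0.005, where 0.207% were. Beside this exact permutation p, the p of Hspa8 was 0.00319 in DESeq2, 0.0374 in edgeR, and in limma 0.00308 without the filter on low counts, 0.139 when the spread was taken from all 4 groups and 0.133 among the males low in choroid plexus markers. Its log2 fold change was between -0.17 and -0.15 in each of these. Read against the shares of all genes, 1 of 10 under 0.05 is no result about the chaperone genes as a set. Control males 2, 4 and 5 and nPM males 2 and 3 were the males rich in choroid plexus markers, whose part in the Hspa8 difference was not tested.

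The other 9 genes overlapped between control and nPM males. Hsp90aa1 was at 1027, 1062, 1173, 1280.4 and 1721 CPM in control males and at 964, 1137, 1195, 1196 and 1226 CPM in nPM males. Its difference of -0.11 (95% CI -0.39 to 0.17) included control male 1, the mouse at 1721 CPM. Over the 10 genes, the nPM difference in males ranged from -0.16 to 0.20 on the log2 scale, with a median of -0.02.

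In females, 9 of the 10 genes were higher in nPM mice, with log2 fold changes between -0.09 and 0.33 and a median of 0.09, but none passed. Over all genes, 10141 of 19797 were higher in nPM females. Of the marker lists, 11 of 12 choroid plexus (median log2 fold change 0.91), 7 of 7 meningeal fibroblast (0.60), 9 of 9 endothelial (0.21) and 7 of 7 microglial markers (0.15) were higher in nPM females too. Of the oligodendrocyte, neuronal and astrocyte markers, 0 of 7 (-0.09), 2 of 8 (-0.06) and 3 of 8 (-0.03) were higher. No marker of these lists had a p under 0.005, and their part in the chaperone values was not tested. None of the 10 had a p under 0.005 (0.0909% of all genes) or under 0.05 (1.99% of all genes) in limma, edgeR or DESeq2. The smallest p was that of Hsp90ab1 (log2 fold change 0.13, SE 0.085, adjusted p = 0.9999 in limma, exact permutation p = 0.159), with 908, 1023, 1069, 1125 and 1180.2 CPM in control females and 1029, 1152, 1163, 1187 and 1204 CPM in nPM females. Hspa8 was at 1049, 1079.5, 1101, 1423 and 1625 CPM in control females and at 1144, 1238, 1279, 1336 and 1579 CPM in nPM females, a log2 difference of 0.10 (95% CI -0.19 to 0.38). No gene of the 10 was free of overlap between the female groups, as 0.364% of all genes were. The 2 high control females, replicates 2 and 4, also had the highest Hsph1, Dnajb1 and Hspd1 of their group.

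The change with nPM was not shown to differ between the sexes. In the interaction test, 0 of 10 genes had a p under 0.005 (0.217% of all genes) or under 0.05 (3.79% of all genes) in limma, edgeR or DESeq2. The smallest p was that of Hspa8, with a male minus female difference of -0.24 (SE 0.15, 95% CI -0.55 to 0.06, p = 0.115, adjusted p = 0.987 in limma, n = 20). Age as a covariate left the counts at p under 0.005 at 0 in all these nPM comparisons.

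**Figure D2:**
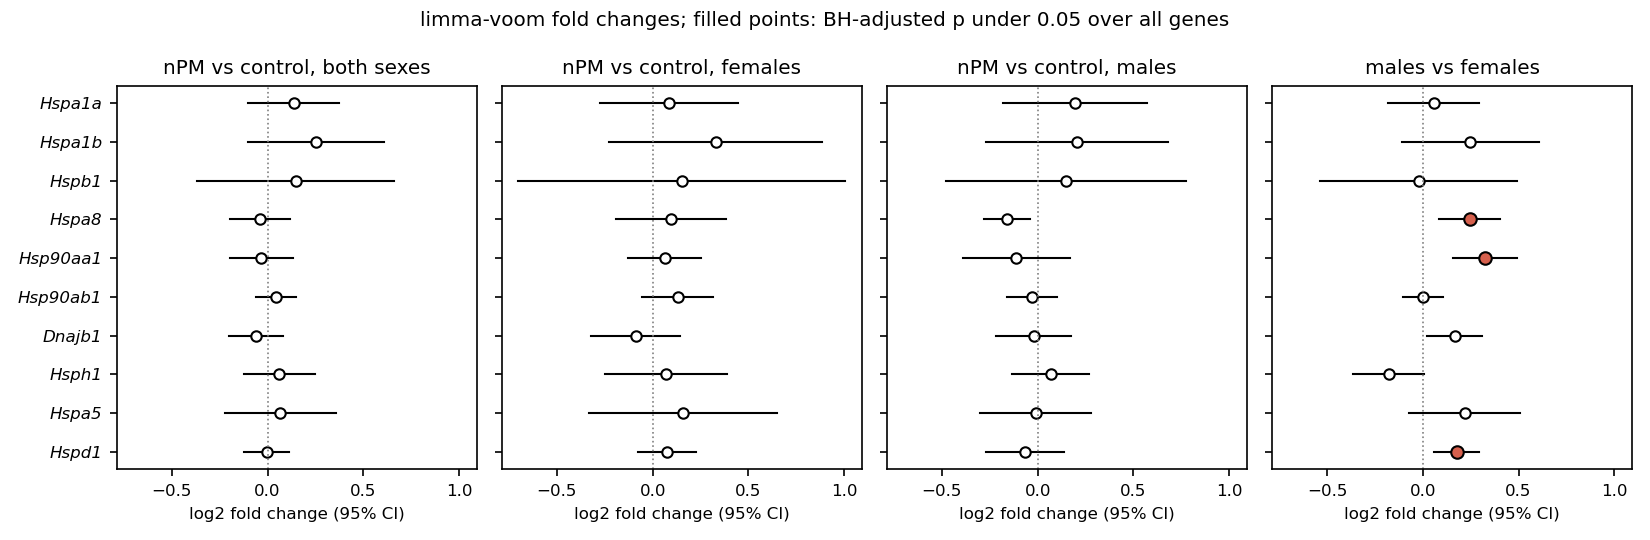
Log2 fold changes from limma-voom with 95% confidence intervals, for nPM against control in both sexes, females and males, and for males against females. Filled points have an adjusted p under 0.05 over all genes. The 3 filled points are Hspa8, Hsp90aa1 and Hspd1 in males against females, and no interval of an nPM comparison excludes 0 except that of Hspa8 in males.

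Other chaperone genes did not pass for nPM either. Of 31 cytosolic co-chaperone genes (with Hsf1 itself), 24 genes of ER chaperones and the unfolded protein response, 12 mitochondrial chaperones and proteases, 13 chaperonin and prefoldin subunits and 4 small heat shock proteins that passed the filter, none had a p under 0.005 in any nPM comparison. With both sexes, the median log2 fold changes of these lists were between -0.02 and 0.02, beside -0.01 over all genes. The smallest p of each list belonged to Bag3, a co-chaperone of selective autophagy (log2 fold change 0.16, p = 0.165), Dnajb9, an ER J-domain protein (-0.09, p = 0.160), the iron-sulfur co-chaperone Hscb (-0.10, p = 0.324), the prefoldin subunit Pfdn1 (-0.08, p = 0.127) and the lens and glial small heat shock protein Cryab (0.14, p = 0.279), all with adjusted p = 0.9998 in limma (n = 10 per exposure). A further 3 small heat shock genes, Hspb2, Hspb7 and Cryaa, were below the filter.

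Within males, the gene with the smallest p of each list was Dnajb5 (log2 fold change 0.30, SE 0.12), Dnajb9 (-0.17, SE 0.079), Grpel1 (-0.10, SE 0.065), Pfdn1 (-0.14, SE 0.063) and Hspb8 (-0.23, SE 0.24), each with an adjusted p of 0.963 in limma. Within females these genes were Fkbp5 (log2 fold change -0.25, SE 0.14), Pdia3 (0.22, SE 0.12), Afg3l2 (0.10, SE 0.072), Cct2 (0.08, SE 0.088) and Hspb6 (0.22, SE 0.22), each with an adjusted p of 0.9999 in limma. For the male minus female difference in the nPM effect they were Fkbp5 (0.33, SE 0.17), Pdia3 (-0.31, SE 0.15), Grpel1 (-0.16, SE 0.11), Pfdn1 (-0.14, SE 0.099) and Hspb8 (-0.46, SE 0.41), each with an adjusted p of 0.987 in limma. Of the 24 ER genes, 5 were higher in nPM males and 22 in nPM females, none of them past the threshold, beside 9810 and 10141 of the 19797 tested genes. Choroid plexus markers (1 of 12 and 11 of 12) and meningeal markers (0 of 7 and 7 of 7) were split between the sexes in the same way. Oligodendrocyte markers (7 of 7 and 0 of 7) were split the other way. The part of these markers in the ER values was not tested.

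Many more genes passed between males and females than between nPM and control mice, and sex is joined to age here. In males, 3 of the 10 chaperone genes were higher at an adjusted p under 0.05, namely Hsp90aa1, Hspa8 and Hspd1, where 40.4% of all genes passed and 18.8% passed as higher in males. The count is no result about these genes when read against that background. Their fold changes were small, and the 10 log2 values had a median of 0.17 beside 0.02 over all genes.

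Hsp90aa1 had the largest difference. It was at 829, 853, 925, 965 and 1097 CPM in control females and at 896, 918, 942, 997 and 1057 CPM in nPM females, so that 1097 CPM was the highest female. In 7 of the 10 males it was above the highest female. The means were 948 ± 84.4 CPM in females and 1198 ± 208 CPM in males (SD, n = 10 each), a log2 fold change of 0.33 (SE 0.080, p = 0.000526, adjusted p = 0.00268 in limma).

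Hspa8 was at 1285 ± 205 CPM in females and 1509 ± 110 CPM in males, with a log2 fold change of 0.24 (SE 0.076, p = 0.00428, adjusted p = 0.0142 in limma, n = 10 per sex), and 6 of 10 females were below the lowest male. Hspd1 was at 156, 157, 166, 174 and 178 CPM in control females, at 162, 169.5, 173, 176 and 185 CPM in nPM females, at 170.1, 184, 188, 199.9 and 248 CPM in control males and at 168, 187, 191, 192 and 198 CPM in nPM males. In 7 males it was above every female, with a log2 fold change of 0.18 (SE 0.057, p = 0.00521, adjusted p = 0.0167 in limma, n = 10 per sex). All 3 genes kept an adjusted p under 0.05 in each of the 20 fits that left out 1 mouse. Among the 13 libraries low in choroid plexus markers, the log2 fold changes were 0.41 for Hsp90aa1, 0.29 for Hspa8 and 0.24 for Hspd1, and of these 3 only Hsp90aa1 kept an adjusted p under 0.05.

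At the threshold of p under 0.005, which 31.1% of all genes passed, Hsp90aa1 and Hspa8 counted. Hspa8 kept it only in the 5 fits without control female 2, control female 4, nPM female 1, nPM male 2 or nPM male 5, and its p was between 0.000716 and 0.0101 over the 20 fits. The J-domain gene Dnajb1 had p = 0.0243 in limma and an adjusted p of 0.0579 (log2 fold change 0.17, SE 0.068, n = 10 per sex), with 29.3 ± 3.6 CPM in females and 32.8 ± 3.23 CPM in males. Hsph1 was at 239 ± 23.9 CPM in males and 273 ± 46.3 CPM in females, with p = 0.0567 in limma (log2 fold change -0.18, SE 0.089, n = 10 per sex). The inducible Hspa1a and the abundant Hsp90ab1 had log2 differences of 0.06 (95% CI -0.18 to 0.30) and 0.00 (95% CI -0.10 to 0.11).

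The list of the cytosolic chaperonin and its prefoldin helpers, the machine that folds actin and tubulin, leaned to one side. All 13 subunits were higher in males and 12 had a p under 0.005, where 13.9% of all genes passed as higher, with a median log2 fold change of 0.26. These 12 were Tcp1 (0.29), Cct2 (0.21), Cct3 (0.22), Cct4 (0.26), Cct5 (0.23), Cct6a (0.29), Cct7 (0.18) and Cct8 (0.30) of the chaperonin ring and Vbp1 (0.42), Pfdn1 (0.29), Pfdn4 (0.47) and Pfdn5 (0.24) of prefoldin, as log2 fold changes. In the 13 libraries low in choroid plexus markers, 6 of the 13 subunits passed, while the genes passing over the whole table fell from 6147 to 2940.

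Among 31 cytosolic co-chaperones, 9 were higher and 4 lower in males at p under 0.005. Over all genes, 13.9% passed as higher and 17.1% as lower, and these shares hold for the other lists below too. The 4 lower of 31 do not exceed that share and are no result about the list. The 9 were the HSP40 genes Dnaja1 (log2 fold change 0.29), Dnaja2 (0.26) and Dnajb6 (0.28), the HSP90 partners Ahsa1 (0.19), Cdc37 (0.18) and Ptges3 (0.27), the HSP70 partners St13 (0.31) and Stub1 (0.21), and Hspa13 (0.41), an atypical HSP70. The 4 lower ones were Hsf1 (-0.36), the regulator of the heat shock genes, Bag3 (-0.35) and Fkbp5 (-0.37), which is induced by glucocorticoids, and the HSP90 co-chaperone Unc45a (-0.22). Of the ER list, Atf4 (0.26), Canx (0.30), Ddit3 (0.30), Dnajb9 (0.31), Dnajc3 (0.34), Dnajc10 (0.25) and P4hb (0.20) were higher and Ern1 (-0.38), the sensor that splices Xbp1, was lower. These 8 of 24 are near the 31.1% of all genes that passed, so the total is no result about the ER list. By direction, 7 of the 24 were higher and 1 lower, beside the 13.9% and 17.1% of all genes. Of 12 mitochondrial genes, Hspe1 (0.40), the partner of Hspd1, Grpel1 (0.32), Grpel2 (0.23), Hspa9 (0.16) and Clpp (0.30) were higher and none lower. No small heat shock gene passed. Beside these, 12 of 12 choroid plexus markers were higher in males without passing (median log2 fold change 1.2, smallest adjusted p = 0.215 in limma), 5 of 9 endothelial markers passed as lower, 3 of 8 astrocyte and 2 of 7 microglial markers as higher, and 2 of 8 neuronal markers as lower. Their part in the chaperone differences was not tested.

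**Figure D3:**
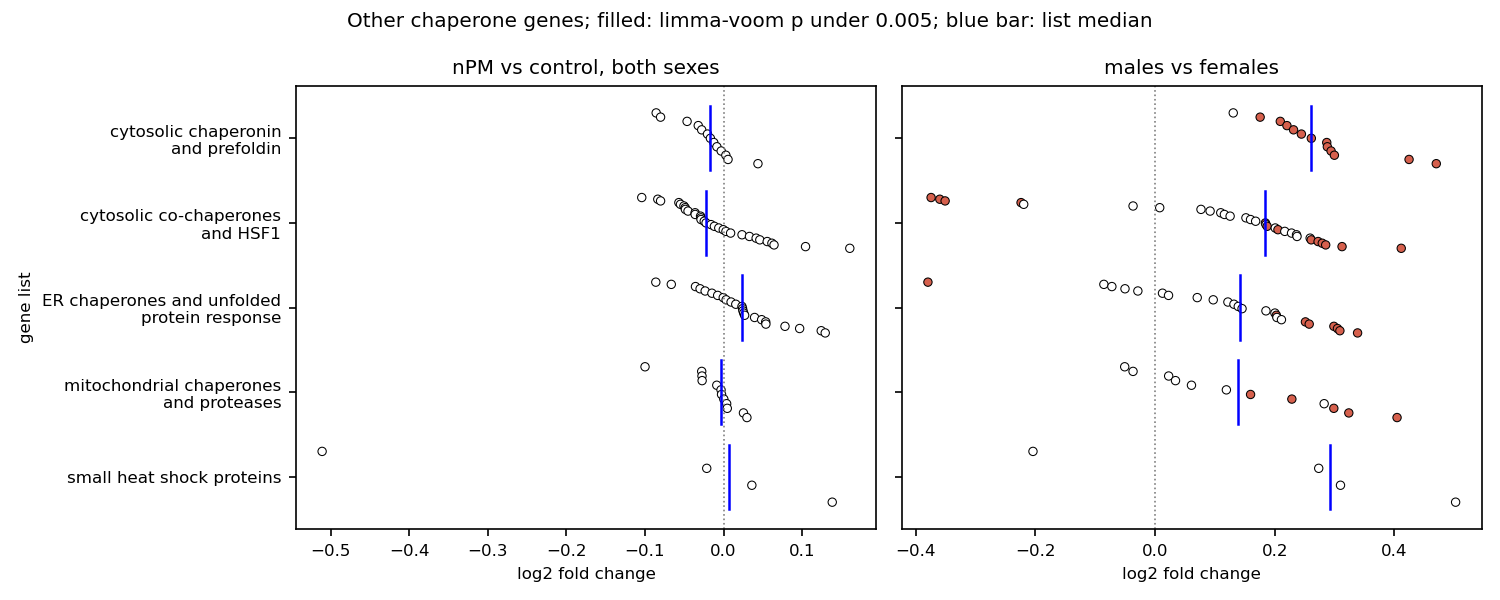
Log2 fold changes of the other chaperone genes by list, for nPM against control with sex as a covariate (left) and for males against females (right). Each point is 1 gene, filled where the limma-voom p was under 0.005, and the blue bar is the median of the list. No point is filled on the left, and 12 of 13 chaperonin and prefoldin points are filled on the right, all at positive values.

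The 10 genes were then compared across mice after subtraction of each group's mean, to see which of them varied together between animals of the same group. Of the 45 pairs, 38 had a positive correlation, with a median Pearson r of 0.36 over the 20 mice, and 6 passed at an adjusted p under 0.05 in a two-sided permutation test with 100000 permutations within groups, all of them positive. All values come from the same libraries, so that depth and composition are shared. The same shares for pairs of other genes are not given, so these counts are no result about the chaperone genes as a set. The count of 6 depended on single mice. It was 1 without control male 5, 2 without control female 3, control female 4 or control male 1, and 3 without control female 2, control male 3 or nPM male 5, and up to 8 without others.

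The closest pair was Hsp90aa1 and Hspd1, a cytosolic HSP90 and the mitochondrial chaperonin, with r = 0.90 and Spearman's rho = 0.84 (permutation p = 2e-04, adjusted p = 0.009). Control male 1 had the highest level of both, 1721 and 248 CPM. It also had the lowest summed oligodendrocyte markers, 2523 CPM beside 3109 to 5891 CPM in the others, and the lowest summed immediate early genes, 127 CPM. Hsp90aa1 and Hspd1 had r = -0.68 and -0.67 with the oligodendrocyte list (adjusted permutation p = 0.334 for both), and -0.31 and -0.24 without the 2 mice farthest from its median. The part of these markers in the pair was not tested. Without the 2 mice farthest from the median r was 0.77, without control male 1 it was 0.78, and over the fits that left out 1 mouse it was between 0.78 and 0.92. Hspa8 varied with both, at r = 0.51 with Hsp90aa1 (rho = 0.61, permutation p = 0.00253, adjusted p = 0.0306) and r = 0.50 with Hspd1 (rho = 0.68, permutation p = 0.00095, adjusted p = 0.0214). These 3 are the genes that were also higher in males, and the group means had been removed.

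Hsph1, which acts in the cytosolic HSP70 cycle, was in 2 further pairs. It varied with Dnajb1 (r = 0.77, rho = 0.67, permutation p = 0.00622, adjusted p = 0.0466) and with Hsp90ab1 (r = 0.73, rho = 0.73, permutation p = 0.00435, adjusted p = 0.0391). By rank neither passed (adjusted permutation p of rho = 0.0996 and 0.0614), and without the 2 farthest mice r was 0.68 and 0.54. Dnajb1 and Hsp90ab1 did not pass with each other (r = 0.51, rho = 0.49, permutation p = 0.0809, adjusted p = 0.228). In control females Hsph1 was at 199.7, 206, 284, 307 and 361 CPM and Dnajb1 at 26.0, 27.0, 28.0, 33.5 and 37.7 CPM, and control females 2 and 4 were the highest for both. The inducible copies did not pass. Hspa1a and Hspa1b had r = 0.47 with each other (rho = 0.43, permutation p = 0.068, adjusted p = 0.228), and Hspa1b ranked 339 among the 19796 other genes for Hspa1a.

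Hspa5 and Hspb1 formed the last of the 6 pairs, with r = 0.73 and rho = 0.73 (permutation p = 0.00272, adjusted p = 0.0306). Hspb1 was at 0.780, 1.16, 1.25, 1.36 and 1.91 CPM in control females, at 0.602, 0.715, 1.25, 2.40 and 2.41 CPM in nPM females, at 0.628, 1.01, 1.08, 1.75 and 1.99 CPM in control males and at 1.02, 1.33, 1.42, 1.47 and 1.60 CPM in nPM males. The 2 nPM females at 2.40 and 2.41 CPM were those rich in choroid plexus markers, and so were the control males at 1.75 and 1.99 CPM. Over all mice, Hspb1 had r = 0.76 with the choroid plexus list (rho = 0.77, permutation p = 0.00149, adjusted p = 0.149). With the meningeal list r was 0.77 (rho = 0.71, permutation p = 0.00433, adjusted p = 0.216). With the endothelial list it was 0.62 (rho = 0.53, permutation p = 0.0385, adjusted p = 0.334). None of them passed the correction. The choroid plexus sums fall into separate clusters, so the correlations are also given within them, with no test. With the choroid plexus list r was 0.32 over the 13 low and 0.56 over the 7 high libraries. With the meningeal list r was 0.41 and 0.85 in these sets, and with the endothelial list 0.76 and 0.53. The part of these cells in the Hspb1 level was not tested. Between Hspa5 and Hspb1, r was 0.73 within the 13 and 0.74 within the 7 libraries. For all values within these sets the group means were taken anew. With few mice per group, the 7 libraries leave few independent values.

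**Figure D4:**
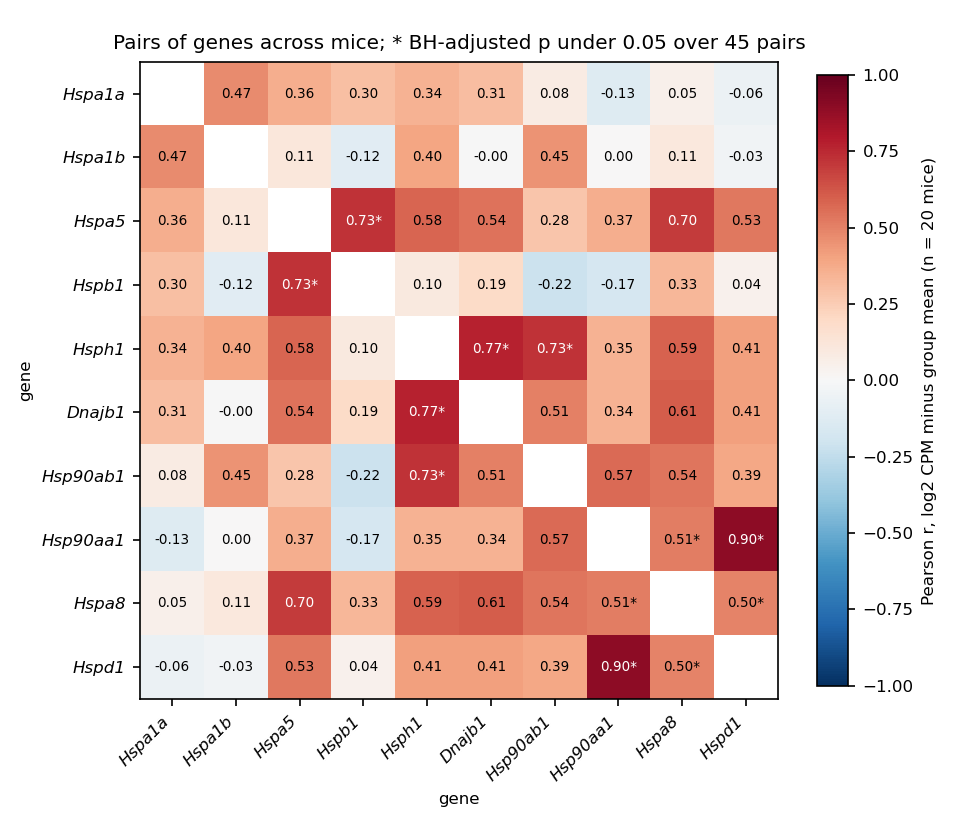
Pearson r of log2 CPM minus the group mean for the 45 pairs of the 10 genes over 20 mice, with the color scale from -1 to 1. Stars mark the 6 pairs with an adjusted p under 0.05. The darkest cell is Hsp90aa1 with Hspd1 (0.90), and Hspa1a with Hspa1b is at 0.47.

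Hspa5 varied between mice together with many genes of the ER list. Its level was 134, 153, 183, 235 and 292 CPM in control females, 168, 175, 176, 259 and 312 CPM in nPM females, 189.6, 192, 244, 255 and 315 CPM in control males and 211, 217, 226, 236 and 279 CPM in nPM males. High and low mice were present in nPM and control groups alike. Outside the 10, the 5 nearest to Hspa5 by r over the 20 mice, as a description with no test, were the disulfide isomerase Pdia6 (0.96), the secreted ER factor Manf (0.96), Xbp1 (0.95), a transcription factor of the unfolded protein response, the disulfide isomerase Pdia3 (0.94) and the lectin chaperone Calr (0.91). Pdia6 was at 50.6 to 101 CPM and Manf at 16.2 to 32.3 CPM over the 20 mice.

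Of the 24 ER genes of the list, 12 were among the 100 genes nearest to Hspa5, and the 24 had a median r of 0.66 beside -0.01 over all genes. The 12 were Hsp90b1, Pdia3, Pdia4, Pdia6, Calr, Dnajb11, Dnajc3, Hyou1, Sdf2l1, Creld2, Manf and Xbp1. None of the mitochondrial or chaperonin genes and 3 cytosolic co-chaperones, Hspa4, Stip1 and Chordc1, were among them. The correlations with Pdia6, Manf and Xbp1 were 0.96, 0.96 and 0.96 within the 13 libraries low in choroid plexus markers and 0.98, 0.94 and 0.95 within the 7 high ones. Here too the group means were taken anew within each set, so that the 7 libraries leave few independent values. Within these sets of libraries, Hspa5 had r = 0.60 and 0.86 with the choroid plexus list, whose part in its level was not tested.

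**Figure D5:**
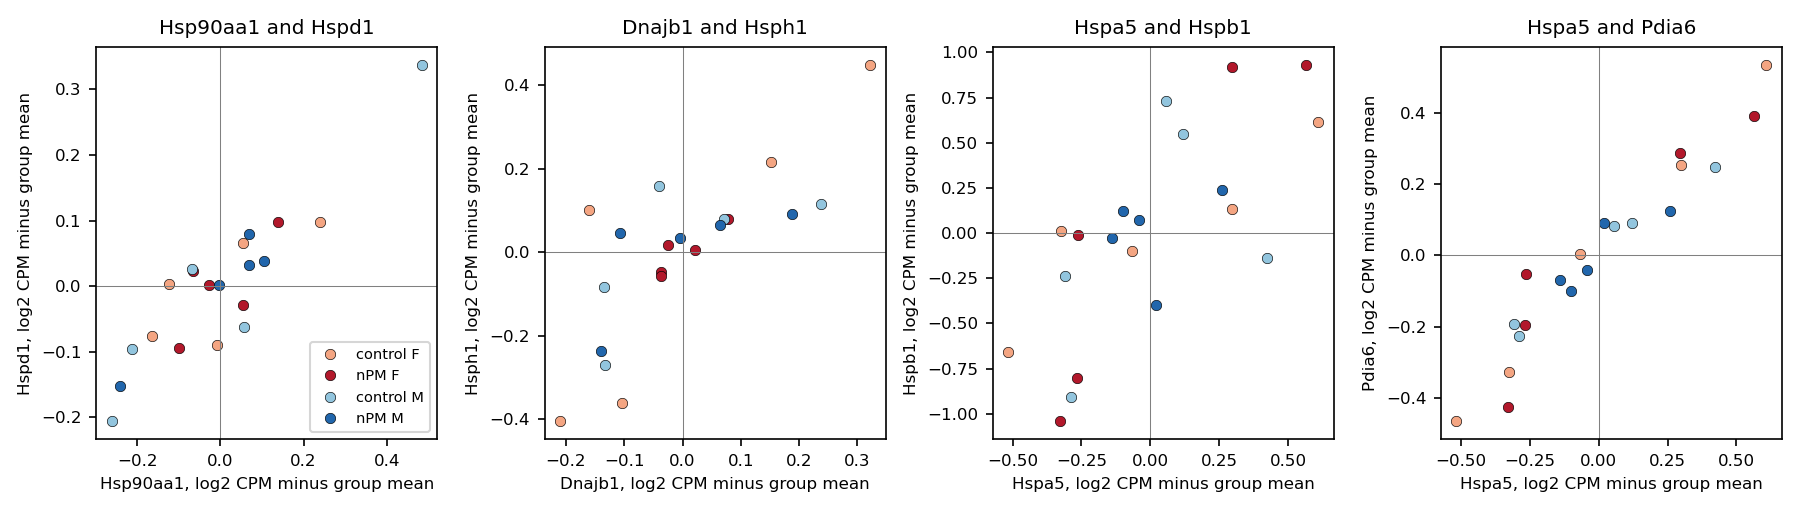
Log2 CPM minus the group mean in each of the 20 mice, colored by group, for Hsp90aa1 and Hspd1, Dnajb1 and Hsph1, Hspa5 and Hspb1, and Hspa5 and Pdia6. Control male 1 lies at the upper right of the first panel, apart from the others, and the points of Hspa5 and Pdia6 lie along a line in every group (r = 0.96).

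The 5 genes nearest to Hsph1 were the phosphatase Mtmr4 (0.85), the stress-induced transcription factor Atf3 (0.84), the cyclic AMP responsive factor Crem (0.84), the aminopeptidase Npepps (0.83) and the zinc finger gene Zfp180 (0.83). Atf3 was low, at 0.256 to 1.99 CPM. Of the chaperone lists, the co-chaperones Dnajb5, Hspa4 and Ahsa1 and the ER genes Calr and Sel1l were among the 100 nearest to Hsph1, and the list medians were between 0.01 and 0.34. Against the mean of 11 immediate early genes, such as Fos, Arc and Npas4, which neurons switch on with activity, Hsph1 had r = 0.66 (rho = 0.61, permutation p = 0.0179, adjusted p = 0.334 over 100 relations) and Dnajb1 r = 0.60 (rho = 0.54, permutation p = 0.0281, adjusted p = 0.334). Neither passed the correction. The summed level of these immediate early genes was 633 CPM in control female 2 and 547 CPM in control female 4, the mice highest in Hsph1, and 127 to 493 CPM in the others. Without the 2 mice farthest from the median of the immediate early list, r was 0.71 for Hsph1 and 0.65 for Dnajb1.

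The genes nearest to Hspd1 were Cebpz (0.91), which takes part in ribosome assembly, the co-chaperone pseudogene Ptges3-ps (0.90), the autophagy receptor Tax1bp1 (0.90), the HSP40 gene Dnaja1 (0.89) and the ribosome factor Ltv1 (0.89). Without control male 1 they were between 0.75 and 0.83. Of the 13 chaperonin and prefoldin subunits, Cct4 and Vbp1 were among its nearest 100 and the median r was 0.59, beside -0.03 over all genes. For Hspa1b the nearest gene, Tyw1 (0.72), was less close, and no gene of any chaperone list was among its nearest 100. The medians of the chaperone lists against Hspa1b were between -0.19 and 0.02.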

How the data were processed

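The authors prepared ribosome-depleted libraries, trimmed reads with Trimmomatic where needed, used HISAT2 for alignment to mm10 and obtained gene counts from featureCounts 1.5.0-p3 with Gencode M11. They deposited raw counts of 48709 genes in 20 mice, and a gene map with the authors' mean RPKM, which was recomputed from the counts to within 4.91e-11. Library sizes (19092067 to 38663408) make counting error small except for Hspa1a, Hspa1b and Hspb1. Tests used TMM (edgeR 4.0.16) and limma-voom 3.58.1 (offset 0.5 counts) as the study did, with a filter chosen here (filterByExpr, minimum count 10, minimum total 15), all genes in each fit, and Benjamini-Hochberg adjustment over the 19797 genes. The mean squared difference between replicates of a group was 14.2 to 77.5 times that of counting noise. The genes and lists were chosen with earlier results of these data known. Single genes within a sex were also compared by exact permutation. For Hspa1b, Hsph1, Hspa5 and Hspd1 the 5 nearest genes were named (for Hspa1b only the nearest, the others are not reported here), and otherwise genes with a p under 0.05 (chaperone lists: under 0.005) or else the smallest p. Gencode M21 transcripts served for shared windows. Fits were checked on simulated data. Alternatives were edgeR, DESeq2 1.42.0, RLE scaling, no filter, quality weights, the summed Hspa1 copies, a replicate block, age, 1 fit of 4 groups and each mouse left out. After the data were seen, the 13 libraries low in choroid plexus markers were added.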

Additional observations from a re-analysis of the deposited data

Results flagged for a closer look

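The Hsph1 level of nPM male 2 lay apart from the others of its group. It was 207 CPM, while the other 4 nPM males were between 249 and 259.7 CPM, so that the gap to the nearest mouse was 0.802 of the range of the group, past the limit of Dixon's test for 5 mice. It was the only 1 of 40 sets of 5 mice past this limit, where chance gives about 5% of such sets. This mouse was among the 7 rich in choroid plexus markers.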

How the results depend on the processing

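None of the 10 genes had a p under 0.005 for nPM with both sexes, in females or in the interaction under any alternative, and in males the count was 1 in DESeq2 and 1 without the filter on low counts (Hspa8 in both). For the small heat shock list in females, 9 of 10 alternatives had 0 genes with such a p, and the largest count was 1. The other chaperone lists had 0 in every nPM comparison. Among the libraries low in choroid plexus markers, Hsp90aa1 took the place of Hspa8 as the 1 gene with a p under 0.05 in males, and 2 genes, Hsp90aa1 and Hsp90ab1, had one for the interaction. The only control males in this set were replicates 1 and 3, and control male 1 had the highest Hsp90aa1, 1721 CPM. None of the 10 genes had an adjusted p under 0.05 there. The share of all genes with a p under 0.05 in this set is not given, so these counts are no result about the chaperone genes. For males against females, the count of 2 at p under 0.005 was 1 among the 13 libraries low in choroid plexus markers and 1 to 3 with a mouse left out, and the count of 3 at an adjusted p under 0.05 was 1 among those libraries and 3 to 4 with a mouse left out. Of the 6 correlated pairs, 3 pairs passed among those libraries, 4 to 9 under the other alternatives and 1 to 8 with a mouse left out. At p under 0.05 the nPM counts also moved with single mice. Hspa1b had such a p in limma for both sexes without nPM male 2 and in females without control female 4. For the interaction, Hsp90ab1 and Hspa8 had one without control female 4, and Hsp90ab1 had one without nPM female 5. The share of all genes with a p under 0.05 in these fits is not given either, so these calls are no result about the chaperone genes. The causes were not tested, and the smaller sets hold fewer mice. Genes with a p under 0.005 over the whole table were 28 for both sexes (14 to 71 under the alternatives), 41 in males (35 to 130), 18 in females (13 to 87), 43 for the interaction (37 to 149) and 6147 for males against females (2940 to 6831).

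Samples that share a replicate number had correlations of -0.36 to 0.16 between control and nPM (3 of 10 over 0.1) and -0.23 to 0.23 between females and males (4 of 10 over 0.1). Samples of unlike number were not set beside these, so they cannot show whether the numbers are pairs. With a replicate block, the counts at p under 0.005 were again 0 for the nPM comparisons and 2 for males against females, with 4 at an adjusted p under 0.05. Hspa8 in males, with an exact permutation p of 0.00794 without a block, had p = 0.0224 with the block in limma. No count or named gene changed direction, but medians over the 10 genes, which have no test, did: for both sexes it was -0.04 among the libraries low in choroid plexus markers, in males 0.01 with quality weights and up to 0.05 with a mouse left out (control male 1, with 0.02 without control male 2 and 0.01 without nPM male 2), and for the interaction 0.02 with quality weights. Depth limits Hspb1, Hspa1a and Hspa1b, whose intervals are wide.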
